A study of Mus musculus with 9 samples.

Results

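Collagen chains were read from the gene count table as every row whose symbol consists of Col, a number, a and a number, which gave 44 genes of 55385. They were followed in sorted mouse kidney cells across 9 libraries of polyadenylated RNA, in 3 groups of 3 biological replicates. All mice were males of 9 to 12 weeks and 25 to 30 g, carried the R26RtdT reporter and had been given tamoxifen, and all sorted cells were positive for the red protein tdTomato. Uninjured cells came from Slc34a1IRES-CreERT2/+:R26RtdT/+ mice, in which the inducible recombinase is expressed with Slc34a1, a phosphate transporter of the proximal tubule. Cells of the 48 h group came from Sox9IRES-CreERT2/+:R26RtdT/+ mice with ischemia-reperfusion injury of both kidneys, given tamoxifen at the injury and collected 48 h after it. Cells of the d14 group came from mice of the same genotype and injury, given tamoxifen on days 10 and 12 and collected on day 14. Sox9, a transcription factor that injured tubules switch on, thus selected the cells of both injured groups, and any cell with an active Sox9 or Slc34a1 allele could be labelled. The Cre allele, the injury and the tamoxifen schedule differ together between uninjured cells and the others and cannot be told apart, and the schedule also separates 48 h from d14. The sources used here do not say whether uninjured mice had a sham operation or whether the animals of a group were littermates.

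Collagens are built from alpha chains that wind into triple helices inside the endoplasmic reticulum. Type IV chains form the network of basement membranes, where in the kidney the chains encoded by Col4a1 and Col4a2 are widespread and those encoded by Col4a3, Col4a4 and Col4a5 make up the mature network of the glomerulus and part of the tubule. Fibrillar chains such as those of types I, III and V form the interstitial fibres that accumulate in a scarred kidney, for which fibroblasts and pericytes are known as the main source. Other classes decorate fibrils, anchor the basement membrane, span the plasma membrane or, in type XVIII, carry heparan sulfate and release the fragment endostatin.

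Levels are given as CPM, the count of a gene brought to a common library size, here scaled with the TMM method. Fold changes are on the log2 scale with their standard error (SE), from edgeR's quasi-likelihood test on all 9 libraries, with p adjusted over 15519 genes by the Benjamini-Hochberg method. A chain is said to be higher, to be lower, to rise or to fall only where the adjusted p was under 0.05. Total counts ran from 8036054 in 48 h replicate 2 to 51631204 in uninjured replicate 1, so that 3 counts, taken as the floor of detection, stood for 0.431 and 0.0651 CPM in these libraries. Of the 44 chains 30 had enough counts to be tested, and being kept in this way favours chains that are high in 1 group. Of the other 14, Col9a1, Col9a2 and Col10a1 had no count in any library, and the remaining 11 had between 3 and 61 counts summed over the 9 libraries.

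Type IV collagen genes lie in head-to-head pairs, and their start regions are shown because the chains of a pair were followed together. In GRCm38 the protein-coding genes Col4a1 (chr8:11198423-11312826, minus strand) and Col4a2 (chr8:11312805-11449287, plus strand) overlap at their 5′ ends by 22 bases. Col4a4 (chr1:82448423-82586849, minus strand) and Col4a3 (chr1:82586921-82722059, plus strand) begin 72 bases apart, and Col4a6 (chrX:141165403-141474076, minus strand) and Col4a5 (chrX:141475385-141689234, plus strand) begin 1309 bases apart. Col18a1 (chr10:77052178-77166548, minus strand), the gene of the type XVIII chain, has 2 start regions in the RefSeq table, both shown. The windows, from RefSeq for GRCm38.p6, run from 250 bases before to 50 bases after a start, 5′ to 3′ on the gene's strand. Capitals mark CCAAT boxes (CCAAT) and GC boxes (GGGCGG) on either strand. The windows of Col4a1 and Col4a2 share 78 bases, and that of Col4a4 also covers the start of Col4a3.
Col4a1, chr8:11312777-11313076, minus strand: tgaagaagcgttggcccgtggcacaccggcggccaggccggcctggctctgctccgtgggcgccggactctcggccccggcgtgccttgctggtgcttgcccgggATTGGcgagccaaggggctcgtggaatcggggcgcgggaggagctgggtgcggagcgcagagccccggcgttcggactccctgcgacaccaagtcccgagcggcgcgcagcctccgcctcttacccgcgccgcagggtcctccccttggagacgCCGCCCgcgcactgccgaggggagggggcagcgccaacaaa
Col4a2, chr8:11312555-11312854, plus strand: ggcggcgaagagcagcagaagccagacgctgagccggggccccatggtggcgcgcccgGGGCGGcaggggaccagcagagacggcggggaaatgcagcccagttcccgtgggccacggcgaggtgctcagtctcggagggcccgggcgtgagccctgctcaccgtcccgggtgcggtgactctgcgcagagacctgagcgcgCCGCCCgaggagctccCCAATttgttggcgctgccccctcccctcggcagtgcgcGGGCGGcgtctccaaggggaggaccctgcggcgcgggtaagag
Col4a4, chr1:82586800-82587099, minus strand: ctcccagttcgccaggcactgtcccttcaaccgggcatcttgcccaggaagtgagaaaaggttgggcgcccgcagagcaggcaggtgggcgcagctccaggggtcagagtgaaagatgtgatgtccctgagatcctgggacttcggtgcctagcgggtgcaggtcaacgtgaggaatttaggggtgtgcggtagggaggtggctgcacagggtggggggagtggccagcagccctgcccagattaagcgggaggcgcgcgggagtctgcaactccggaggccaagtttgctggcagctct
Col4a5, chrX:141475169-141475468, plus strand: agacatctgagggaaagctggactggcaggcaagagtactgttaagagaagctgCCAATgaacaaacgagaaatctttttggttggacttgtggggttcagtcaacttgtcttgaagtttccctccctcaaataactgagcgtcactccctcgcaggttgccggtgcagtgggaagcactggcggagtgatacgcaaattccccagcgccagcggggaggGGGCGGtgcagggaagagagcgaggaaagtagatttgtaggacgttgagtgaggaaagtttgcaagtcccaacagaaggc
Col4a6, chrX:141474027-141474326, minus strand: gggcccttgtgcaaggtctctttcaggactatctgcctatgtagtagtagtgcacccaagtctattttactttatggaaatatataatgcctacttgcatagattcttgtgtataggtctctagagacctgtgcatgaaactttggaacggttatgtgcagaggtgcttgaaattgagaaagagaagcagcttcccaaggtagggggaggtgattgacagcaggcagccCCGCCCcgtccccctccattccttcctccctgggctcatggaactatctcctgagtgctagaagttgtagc
Col18a1, chr10:77166481-77166780, minus strand: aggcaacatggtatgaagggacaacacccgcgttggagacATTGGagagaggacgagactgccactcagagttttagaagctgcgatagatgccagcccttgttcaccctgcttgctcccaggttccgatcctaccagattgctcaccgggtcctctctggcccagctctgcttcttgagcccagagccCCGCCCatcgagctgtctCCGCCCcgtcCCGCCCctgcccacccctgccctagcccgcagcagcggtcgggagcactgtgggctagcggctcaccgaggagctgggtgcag
Col18a1, chr10:77113656-77113955, minus strand: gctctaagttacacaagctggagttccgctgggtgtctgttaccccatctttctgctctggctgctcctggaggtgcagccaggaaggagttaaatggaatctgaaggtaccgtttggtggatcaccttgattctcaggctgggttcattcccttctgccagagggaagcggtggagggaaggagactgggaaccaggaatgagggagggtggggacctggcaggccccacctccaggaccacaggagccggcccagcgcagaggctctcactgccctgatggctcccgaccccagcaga

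Windows were found for 35 of the 44 chains, 38 in all. Col1a1, Col2a1, Col4a3, Col5a2, Col9a3, Col12a1, Col14a1, Col22a1 and Col26a1 had no window of their own and are not in the counts below. A GC box was present in 23 of these 38, against 35.7% of the 32851 windows in the table, and a CCAAT box in 13, against 37.4%. The core of the SOX factor motif (ACAAT on either strand) was present in 2 of the 38, those of Col3a1 and the untested Col28a1, against 31.0% of all windows. A TATA box (TATAAA on either strand) was present in 5, against 13.6%. The windows of Col4a1 and Col4a2 consisted of G and C to 74.0% and 73.7%, while those of Col4a5 and Col4a6 stood at 52.7% and 48.3%, around the median of 52.7% over all windows. The 2 windows of Col18a1 differed: the one farther upstream held 3 GC boxes and 1 CCAAT box, and the other neither. These are matches of letters only, without a measurement of binding.

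A few chains held almost all collagen RNA. Type IV chains, Col18a1 and Col27a1 together took 92.7% to 97.1% of the collagen counts of each library. Type IV alone took 84.9%, 81.6% and 84.6% in the uninjured replicates, 74.7%, 48.7% and 61.2% at 48 h and 65.5%, 64.2% and 63.9% at d14. Col18a1 took 6.70%, 7.61% and 7.97% in uninjured cells, 18.8%, 28.5% and 28.2% at 48 h and 26.1%, 26.9% and 27.5% at d14. The share of type IV was thus lower, and that of Col18a1 higher, in every Sox9 library than in any uninjured library. All 44 chains summed to 1110, 1150 and 1210 CPM in uninjured cells, 1390, 1710 and 1370 at 48 h and 1650, 1810 and 1730 at d14. Per kilobase of exon, the order of mean levels in uninjured cells was Col4a4 (32.8 CPM per kb), Col4a3 (31.0), Col4a1 (20.2), Col4a2 (19.1) and Col18a1 (12.2). At d14 it was Col18a1 (66.0 CPM per kb), Col4a1 (50.8), Col4a2 (32.1), Col4a4 (26.7) and Col4a3 (16). In uninjured cells the libraries of Col4a3 and Col4a4, and those of Col4a1 and Col4a2, overlapped in this measure.

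**Figure D1:**
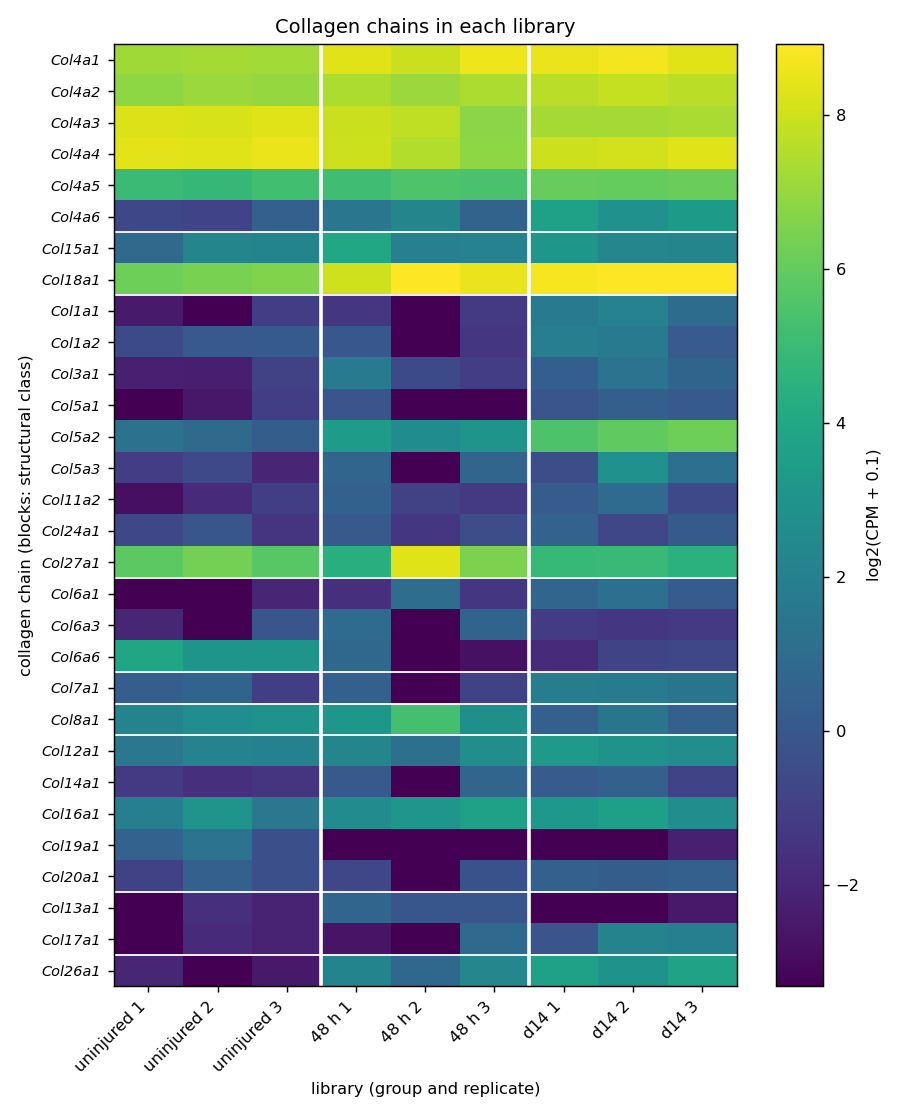
Levels of the 30 tested collagen chains (rows, in blocks by structural class) in the 9 libraries (columns), as log2(CPM + 0.1) in colour. Type IV chains and Col18a1 are the brightest rows, Col5a2 and Col26a1 brighten from uninjured to d14 libraries, and Col6a6 and Col19a1 are brightest in uninjured libraries.

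Counted over the 30 tested chains, 5 were higher and 4 lower at 48 h than in uninjured cells, where 17.4% and 11.7% of all 15519 genes were called higher and lower. Both shares of the chains were thus close to those of all genes. At d14 13 chains were higher and 4 lower than in uninjured cells, against 25.1% and 20.7% of all genes, so that a larger share of the chains than of all genes was higher and a smaller share lower. Between d14 and 48 h 7 were higher and 2 lower at d14, against 16.8% and 16.3%, with the same directions of difference. These shares were not tested. The median log2 change of the 30 was 1.12 at 48 h, 1.19 at d14 and 0.67 between d14 and 48 h, beside 0.0197, 0.0601 and 0.0549 over all genes. The comparisons share libraries, and low chains weigh as much as abundant ones in these medians. Without TMM scaling the median of all genes would be 0.0116, 0.626 and 0.629, so changes at d14 are relative to a scaling that places most genes near 0.

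In all 20 chains were called in at least 1 comparison. Col4a1, Col4a6, Col18a1, Col5a2 and Col26a1 were higher in both injured groups than in uninjured cells, and Col4a3, Col6a6 and Col19a1 were lower in both. Col4a6, Col5a2 and Col26a1 were higher in all 3 comparisons. The 10 chains called in none were Col5a1, Col6a3, Col7a1, Col11a2, Col14a1, Col15a1, Col16a1, Col20a1, Col24a1 and Col27a1. Calls that held in all 16 alternatives were those of Col4a1, Col4a4, Col5a2, Col6a6, Col18a1, Col19a1 and Col26a1 at 48 h, those of Col1a1, Col4a1, Col4a2, Col4a5, Col4a6, Col5a2, Col6a1, Col6a6, Col18a1, Col19a1 and Col26a1 at d14 and those of Col4a5, Col5a2 and Col8a1 between d14 and 48 h.

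**Figure D2:**
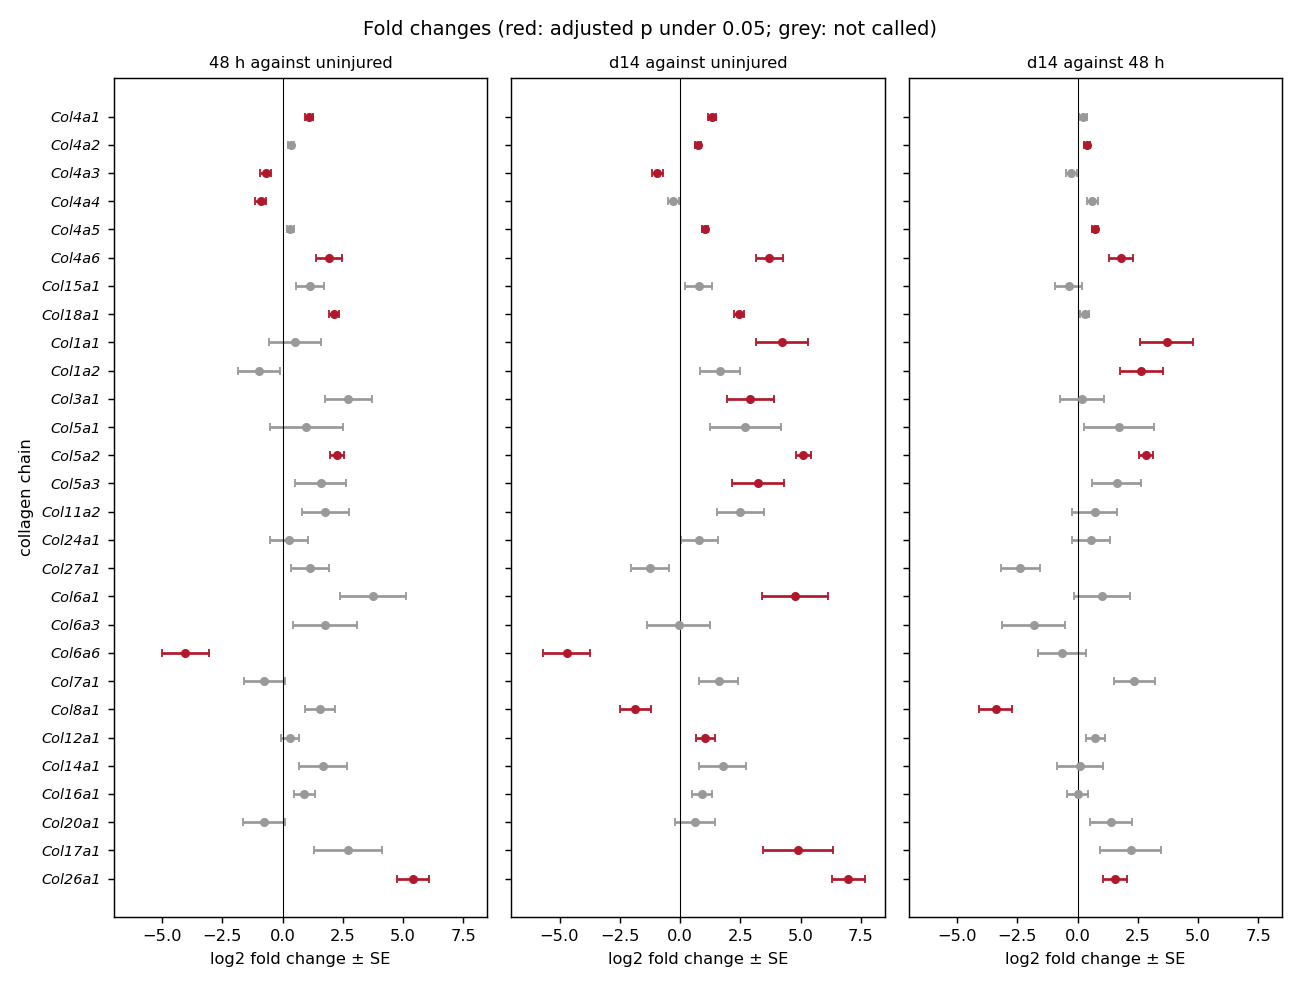
Log2 fold change and SE (whiskers) of 28 tested collagen chains in the 3 comparisons; red points have an adjusted p under 0.05 and grey points were not called. Col13a1 and Col19a1 are left out because a group had 3 counts or fewer; Col26a1 lies farthest to the right at d14 (6.98) and Col6a6 farthest to the left (-4.70).

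Of the first type IV pair, whose chains form the common basement membrane network, Col4a1 was higher in both injured groups and Col4a2 at d14. Col4a1 was at 143, 157 and 152 CPM in uninjured cells, at 332, 243 and 393 at 48 h and at 385, 419 and 333 CPM at d14. It rose by 1.10 ± 0.17 (SE) at 48 h (adjusted p = 0.00072) and by 1.33 ± 0.17 at d14 (adjusted p = 6.85e-05) against uninjured cells. No uninjured library reached an injured one, while the 48 h and d14 libraries overlapped (0.23 ± 0.17, adjusted p = 0.317). Col4a2 was at 115, 137 and 127 CPM in uninjured cells, 170, 137 and 174 at 48 h and 202, 233 and 203 at d14. Its difference at 48 h was 0.35 ± 0.13 (adjusted p = 0.0643), and it was higher at d14 by 0.75 ± 0.13 (adjusted p = 0.000608). The d14 libraries also lay above those of 48 h (0.40 ± 0.13, adjusted p = 0.0319). This last call was lost without uninjured replicate 2, 48 h replicate 2 or any 1 d14 library (0.30 to 0.44, adjusted p = 0.0512 to 0.114). Read per kilobase, Col4a1 and Col4a2 were close to equal in uninjured cells, with ratios of 1.10, 1.02 and 1.06. The ratio was 1.73, 1.58 and 2.00 at 48 h and 1.69, 1.60 and 1.45 at d14, above every uninjured library.

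Endothelial and mesangial cells also make type IV chains, so their markers were read beside these values. The 10 endothelial markers summed to 85.1, 114 and 161 CPM in uninjured cells, 800, 95.4 and 157 at 48 h and 35.6, 71.0 and 32.2 at d14. Replicate 1 of the 48 h group stood apart in this sum, and Col4a1 in it (332 CPM) lay between the other 48 h replicates. None of the 10 was called in either injured group against uninjured cells. Between d14 and 48 h, 9 of 10 were lower at d14, against 16.3% of all genes. Of the 5 mesangial markers Gata3, which collecting ducts also express, was higher at both times, at 1.17 ± 0.721 CPM (SD, n = 3) in uninjured cells, 14.2 ± 1.96 CPM in the 48 h group and 58.9 ± 7.94 CPM in the d14 group. The other 4 were not called, and the median log2 change of the 5 was -0.896 at 48 h and 0.192 at d14. In sorted bulk RNA, fewer cells of a type and less RNA per cell cannot be told apart.

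Of the second pair, whose products join the mature kidney network, Col4a4 was lower at 48 h and Col4a3 was lower at d14 and, by a call that most alternatives lost, at 48 h. Col4a3 was at 310, 291 and 325 CPM in uninjured cells, 246, 217 and 110 at 48 h and 155, 157 and 167 at d14. It fell at d14 (log2 change -0.95 ± 0.23, adjusted p = 0.00659), a call lost without TMM scaling (-0.39, adjusted p = 0.145). At 48 h the change was -0.69 ± 0.23 (adjusted p = 0.0464). That call held in 5 of 16 alternatives and was lost when 48 h replicate 2, any 1 uninjured or any 1 d14 library was left out (adjusted p = 0.0547 to 0.122). Col4a4 was at 344, 322 and 378 CPM in uninjured cells, 253, 184 and 116 at 48 h and 255, 277 and 319 at d14. It fell at 48 h (log2 change -0.91 ± 0.23, adjusted p = 0.0133), with every 48 h library below every uninjured one. At d14 it stood at -0.29 ± 0.23 against uninjured cells (adjusted p = 0.327; 0.27 without TMM scaling) and at 0.62 ± 0.23 against 48 h (adjusted p = 0.0598), neither of which passed the test. The former was called in 1 of 16 alternatives, with only the 2 groups compared in the fit, and the latter in 4 of 16. The ratio of Col4a3 to Col4a4 per kilobase was 0.961, 0.960 and 0.917 in uninjured cells and 1.03, 1.25 and 1.01 at 48 h, but 0.648, 0.602 and 0.555 at d14, below every other library. Podocytes, the glomerular cells known for making both chains, were read through 8 markers. Their sum was 41.7, 53.4 and 64.3 CPM in uninjured cells, 156, 47.7 and 94.5 at 48 h and 45.3, 55.9 and 39.2 at d14. Of the 8, 2 were higher at 48 h (17.4% of all genes) and none lower. At d14 2 were higher and 1 lower than in uninjured cells (25.1% and 20.7% of all genes). Against 48 h, 1 was lower at d14 (16.3% of all genes). The median log2 change of the 8 against uninjured cells was 0.542 at 48 h and -0.495 at d14. Synpo, an actin-associated gene of the foot processes, was among the higher ones at both times (adjusted p = 0.00303 and 0.000953). It was at 2.90 ± 1.53 CPM (SD, n = 3) in uninjured cells, 10.3 ± 2.51 CPM at 48 h and 11.1 ± 1.79 CPM at d14. The part of podocyte RNA in the levels of Col4a3 and Col4a4 was not tested.

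**Figure D3:**
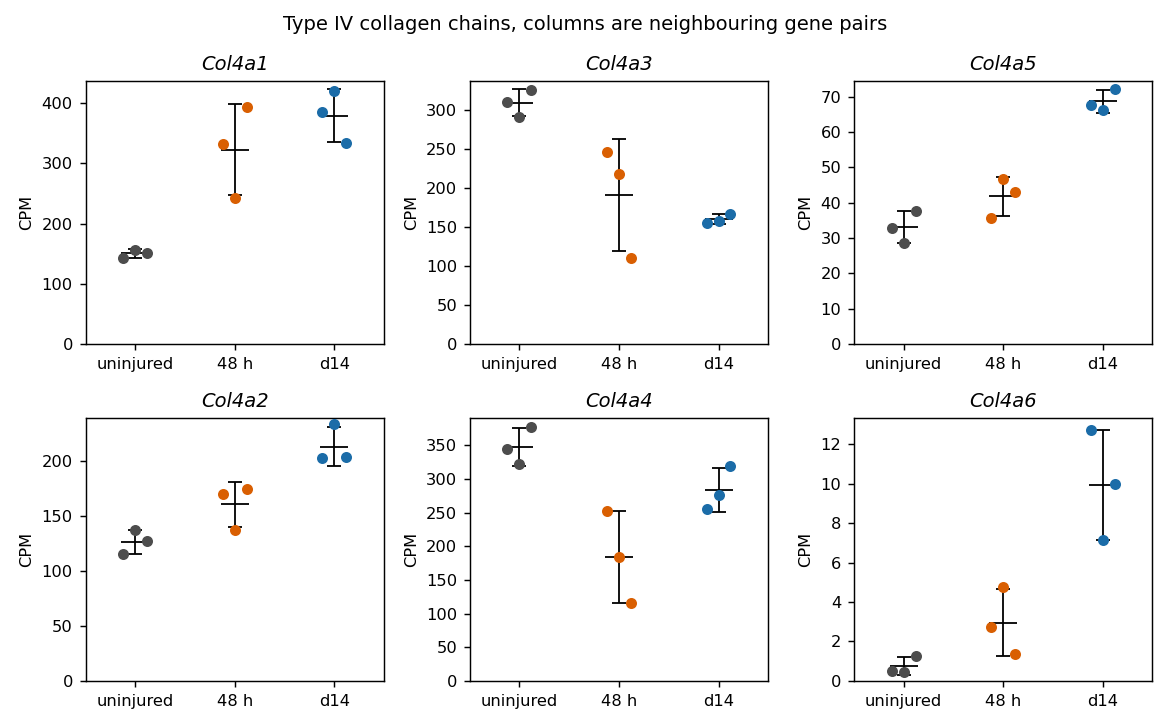
Level of each type IV chain (CPM, axes from 0) in uninjured, 48 h and d14 libraries, with neighbouring genes one above the other; points are libraries, long bars means and whiskers SD (3 libraries). Col4a1 sits between 143 and 157 CPM in uninjured cells and between 243 and 419 CPM after injury, while Col4a3 at d14 sits between 155 and 167 CPM, below its 291 to 325 CPM in uninjured cells.

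Both chains of the third pair, on the X chromosome, were higher at d14 than in both other groups. Col4a5, whose product winds with the Col4a3 and Col4a4 chains or with the Col4a6 chain, was at 32.9, 28.6 and 37.7 CPM in uninjured cells, 35.7, 46.7 and 43.0 at 48 h and 67.6, 66.1 and 72.2 at d14. At d14 it was higher than in uninjured cells by 1.05 ± 0.13 (adjusted p = 7.36e-05) and than at 48 h by 0.72 ± 0.14 (adjusted p = 0.00243). Both calls held in all 16 alternatives, and the difference at 48 h was 0.33 ± 0.14 (adjusted p = 0.0894). Col4a6, a chain of Bowman's capsule and collecting duct basement membrane, was at 0.521, 0.456 and 1.27 CPM in uninjured cells, 2.75, 4.74 and 1.38 at 48 h and 12.7, 7.13 and 9.99 at d14. The 3 groups did not overlap. It was higher than in uninjured cells by 1.91 ± 0.54 at 48 h (adjusted p = 0.0208) and by 3.71 ± 0.55 at d14 (adjusted p = 0.000205), and d14 exceeded 48 h by 1.80 ± 0.51 (adjusted p = 0.0202). The 48 h call was lost without uninjured replicate 1, uninjured replicate 2 or 48 h replicate 2 (adjusted p = 0.0565 to 0.0780). The call of d14 over 48 h was lost without 48 h replicate 3, d14 replicate 1 or d14 replicate 3 (adjusted p = 0.0573 to 0.0801). Without uninjured replicate 3, Col4a6 stood at 2.52 at 48 h and 4.33 at d14. Even at d14 Col4a6 was the minor member of its pair, with ratios to Col4a5 per kilobase of 0.158, 0.0908 and 0.116, against 0.0133, 0.0134 and 0.0283 in uninjured cells.

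Within a library, the balance between the type IV networks was lower in injured than in uninjured cells. The summed level of Col4a3 and Col4a4 per kilobase, divided by that of Col4a1 and Col4a2, was 1.74, 1.43 and 1.72 in uninjured cells, 0.691, 0.736 and 0.279 at 48 h and 0.483, 0.459 and 0.622 at d14. Every injured library was below every uninjured one. The split fell at 1 per kilobase only, as it depends on the exon lengths used. In plain counts the ratio was 2.53, 2.09 and 2.52 in uninjured cells. It was 0.994, 1.06 and 0.399 at 48 h and 0.7, 0.666 and 0.907 at d14. These ratios were chosen after the values had been seen and carry no test, and they do not depend on the scaling of libraries.

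**Figure D4:**
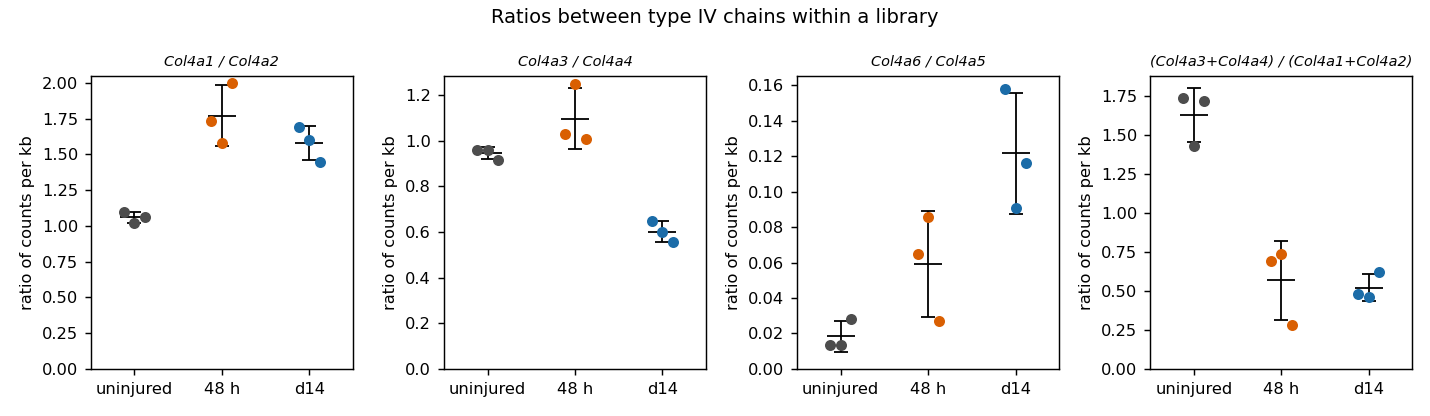
Ratios of counts per kb between type IV chains in the same library (axes from 0), by group; points are libraries, long bars means and whiskers SD (3 libraries). Col4a1 to Col4a2 is 1.06 on average in uninjured cells and 1.77 and 1.58 at 48 h and d14, and Col4a3 plus Col4a4 to Col4a1 plus Col4a2 is 1.63, 0.568 and 0.521 in the same order.

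Of the multiplexins, the basement membrane collagens that carry glycosaminoglycan chains, Col18a1 rose and Col15a1 was not called. Col18a1 was at 74.6, 87.2 and 96.1 CPM in uninjured cells, 262, 487 and 386 at 48 h and 429, 485 and 475 at d14. It rose by 2.14 ± 0.20 at 48 h (adjusted p = 3e-05) and by 2.43 ± 0.21 at d14 (adjusted p = 3.44e-06), and the 48 h and d14 libraries overlapped (0.29 ± 0.19, adjusted p = 0.277). Every injured library held more than the highest uninjured one, and both calls held in all 16 alternatives. Col18a1 overlaps Slc19a1, a folate transporter gene on the opposite strand, over 8825 bases, and Slc19a1 was at 102, 89.3 and 103 CPM, at 53.4, 132 and 74.7 CPM and at 33.3, 42.8 and 41.7 CPM in the same order. The library kit kept strand, but no source used here says whether the counting used it. The d14 libraries held the lowest values of Slc19a1, and 48 h replicate 2 held the highest value of both genes. The part of Slc19a1 reads in the level of Col18a1 was not tested. Col15a1, in the same class, was at 1.78, 4.63 and 4.52 CPM in uninjured cells, 15.6, 3.88 and 4.19 at 48 h and 8.77, 4.99 and 4.82 at d14. Its highest value fell in 48 h replicate 1, the library with the highest sum of endothelial markers, and its differences of 1.14 ± 0.57 at 48 h (adjusted p = 0.164) and 0.77 ± 0.56 at d14 (adjusted p = 0.297) did not pass the test.

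Of 9 tested fibrillar chains 1 was higher at 48 h and 4 at d14 than in uninjured cells, and none was lower. Over all genes tested the shares higher were 17.4% and 25.1%, and the shares lower 11.7% and 20.7%. Col5a2 (chr1:45374321-45503282, minus strand), which encodes a chain of type V collagen that starts and thins type I fibrils, was at 2.28, 1.79 and 1.12 CPM in uninjured cells, 10.8, 6.04 and 7.88 at 48 h and 45.2, 61.8 and 74.1 at d14. It rose by 2.27 ± 0.30 at 48 h (adjusted p = 0.000339), by 5.12 ± 0.32 at d14 (adjusted p = 5.1e-07) and by 2.84 ± 0.28 from 48 h to d14 (adjusted p = 7.39e-05). The 3 groups were fully separated and all 3 calls held in the 16 alternatives. Its share of collagen counts was 0.0926% to 0.205% in uninjured cells and 2.75% to 4.29% at d14, and its rank per kilobase among the chains went from 14 to 11 and then 7. The other chains of type V, with which its product assembles, were low. Col5a1 stayed between 0 and 1.19 CPM in all libraries and was not called (2.71 ± 1.46 at d14, adjusted p = 0.155). Col5a3 was at 0.361 ± 0.205 CPM (SD, n = 3) in uninjured cells and at 0.669, 7.28 and 2.15 CPM at d14. Its call at d14 (3.22 ± 1.08, adjusted p = 0.0309) rested on d14 replicate 2, without which it was 1.97 (adjusted p = 0.207), and was also lost without uninjured replicate 1, 2 or 3 (adjusted p = 0.0906, 0.0571 and 0.103).

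Chains of types I and III, the bulk of scar collagen, were low in every library, at 4.20 CPM or less. Col1a1 was at 0.0869, 0 and 0.381 CPM in uninjured cells, 0.281, 0 and 0.323 at 48 h and 3.13, 4.20 and 1.90 at d14. It was higher at d14 than in uninjured cells by 4.23 ± 1.07 (adjusted p = 0.00722) and than at 48 h by 3.70 ± 1.09 (adjusted p = 0.0229). The first call held in all 16 alternatives, at 5.83 without uninjured replicate 3, and the second was lost without d14 replicate 1 or 2 (adjusted p = 0.0582 to 0.0758). Col1a2, which encodes the partner chain in the type I helix, was at 0.565, 0.983 and 1.02 CPM in uninjured cells, 0.898, 0 and 0.277 at 48 h and 3.73, 3.33 and 1.06 at d14. Its difference at d14 was 1.66 ± 0.82 against uninjured cells (adjusted p = 0.121) and 2.64 ± 0.89 against 48 h (adjusted p = 0.0405). The latter was called in 6 of 16 alternatives and was lost without any 1 uninjured library, 48 h replicate 2 or 3 or d14 replicate 1 or 2 (adjusted p = 0.0543 to 0.127), and was 3.86 without 48 h replicate 1. Col3a1 was at 0.109, 0.105 and 0.431 CPM, at 3.37, 0.575 and 0.369 CPM and at 1.16, 2.41 and 1.44 CPM in the same order. It was higher at d14 than in uninjured cells by 2.92 ± 0.98 (adjusted p = 0.0294), a call lost without uninjured replicate 1 or 2 or d14 replicate 2 or 3 (2.57 to 3.02, adjusted p = 0.0530 to 0.102) and at 3.90 without uninjured replicate 3. Even the highest of these values, 4.20 CPM of Col1a1, was far below the 45.2 CPM of the lowest d14 library for Col5a2.

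Markers of fibroblasts, pericytes and myofibroblasts were read beside the fibrillar chains. The 12 summed to 37.5, 32.3 and 43.7 CPM in uninjured cells, 25.5, 42.4 and 57.7 at 48 h and 20.7, 62.1 and 42.2 at d14, and the groups overlapped. Most of that sum was the pericyte proteoglycan gene Cspg4, with means of 28, 36.7 and 29.6 CPM. Of the 8 tested, the proteoglycan gene Dcn was called, at 0.0564 ± 0.0455 CPM (SD, n = 3) in uninjured cells and 0.557 ± 0.0713 CPM at d14 (3.16 ± 1.09, adjusted p = 0.034), a call lost when any 1 library except 48 h replicate 2 or 3 was left out (adjusted p = 0.0511 to 0.134) and at 4.02 without uninjured replicate 1. For comparison, 25.1% of all genes tested were higher at d14. Postn, a matrix gene of myofibroblasts that failed the filter and was not tested, had 1 count in the uninjured libraries, 8 counts at 48 h (all in replicate 1) and 59 at d14, at 0.141, 1.43 and 0.517 CPM in the d14 replicates. Gli1 and Mfap5 were at 0 in all libraries, and Pdgfra had group means of 0.513, 0.485 and 0.453 CPM. The part of such cells in the levels of Col1a1 and Col3a1 was not tested.

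Several collagen chains of cartilage are textbook targets of Sox9, and they were scarce. Sox9 itself was at 0.152, 0.0351 and 0.635 CPM in uninjured cells, 7.57, 15.1 and 22.1 at 48 h and 38.8, 32.1 and 28.8 at d14. Col2a1, the main cartilage chain, had 16 counts in all, each of them at d14, and Col11a1 had 6. Col9a1 and Col9a2 had none, Col9a3 had 22 and Col10a1, of hypertrophic cartilage, none. Col11a2 passed the filter with means of 0.200 ± 0.170, 0.681 ± 0.530 and 1.15 ± 0.664 CPM (SD, n = 3) and was not called at 48 h (1.78 ± 0.98, adjusted p = 0.199) or at d14 (2.5 ± 0.97, adjusted p = 0.0546). Col27a1, another chain of cartilage, was abundant but varied widely. It was at 58.1, 81.7 and 54.2 CPM in uninjured cells, 21.3, 324 and 89.7 at 48 h and 29.7, 30.0 and 22.9 at d14. The 48 h replicates spanned from the lowest to the highest value of all 9 libraries. Its differences were 1.15 ± 0.78 at 48 h (adjusted p = 0.317; -0.21 without 48 h replicate 2), -1.23 ± 0.79 at d14 (adjusted p = 0.243) and -2.38 ± 0.81 between d14 and 48 h (adjusted p = 0.0573), although every d14 library was below every uninjured one. The d14 difference from uninjured cells was called in 1 of 16 alternatives, with only the 2 groups compared in the fit (adjusted p = 0.000178). Col24a1, the remaining tested fibrillar chain, stayed between 0.254 and 1.34 CPM.

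Among chains of other classes, the strongest rise was in Col26a1 (chr5:136741759-136883209), a little studied collagen first described in mouse testis and ovary. It was at 0.152, 0 and 0.0761 CPM in uninjured cells, 4.54, 1.58 and 4.98 at 48 h and 12.8, 7.80 and 13.1 at d14. The rise was 5.42 ± 0.67 at 48 h (adjusted p = 0.000188) and 6.98 ± 0.69 at d14 (adjusted p = 1.09e-05). Uninjured replicate 1 held 7 of the 10 uninjured counts, and both calls held without it (6.31 and 7.87, values that depend on how the 3 remaining counts are smoothed). From 48 h to d14 it rose by 1.56 ± 0.50 (adjusted p = 0.0345), a call lost without 48 h replicate 2 or d14 replicate 1 or 3 (1.24 to 1.47, adjusted p = 0.0547 to 0.123). The 3 groups did not overlap, and its rank per kilobase among the chains went from 33 to 12 and then 9. Col17a1, the transmembrane collagen of hemidesmosomes, was at 0, 0.176 and 0.127 CPM in uninjured cells, 0.0561, 0 and 1.71 at 48 h and 0.845, 4.35 and 3.81 at d14. It was higher at d14 by 4.91 ± 1.45 (adjusted p = 0.0172), lost without uninjured replicate 1 (4.28) or 3 (adjusted p = 0.0520 and 0.0552). Col13a1, another transmembrane chain, had its counts mostly at 48 h, at 1.51, 0.862 and 0.876 CPM, against 0, 0.211 and 0.127 CPM in uninjured cells and 0, 0 and 0.0816 CPM at d14. The 48 h libraries held 52 counts and the d14 libraries 3, a ratio of 33.7 (95% counting interval 10.9 to 169). This interval leaves out the spread between replicates. In the test across libraries the difference had an adjusted p of 0.0232. That call was lost without 48 h replicate 1 or d14 replicate 1 or 2 (adjusted p = 0.0690 to 0.0896), and the difference between 48 h and uninjured cells was not called (3.29 ± 1.29, adjusted p = 0.0782).

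Outside type IV, the chains that were lower in an injured group were Col6a6, Col19a1 and Col8a1. Col6a6, a chain that can replace the third chain of type VI, was at 14.8, 8.07 and 7.94 CPM in uninjured cells, 1.63, 0 and 0.0461 at 48 h and 0.176, 0.475 and 0.517 at d14. Its log2 change was -4.04 ± 0.98 at 48 h (adjusted p = 0.0121) and -4.70 ± 0.98 at d14 (adjusted p = 0.00298), with no overlap between uninjured and injured libraries. The 48 h value rested on replicate 1, which held 29 of the 30 counts at 48 h. It was -3.41 without 48 h replicate 3, and without replicate 1 a single count was left, too few for a fold change. On the same single count, the fitted difference between d14 and 48 h, -0.65 ± 1.00 (adjusted p = 0.654), became 3.36 (adjusted p = 0.0367) without 48 h replicate 1. Col6a4 and Col6a5, its neighbours on chromosome 9, were found in uninjured cells only, with 26 and 4 counts. Col6a1, the core chain of type VI, moved the other way from 0, 0 and 0.152 CPM to 1.48, 2.10 and 1.09 CPM at d14 (4.78 ± 1.36, adjusted p = 0.0135), at 4.18 without uninjured replicate 1. Its 6 uninjured counts were all in replicate 3, so no fold change can be given without that library. Its 48 h value of 3.76 ± 1.36 (adjusted p = 0.0596) was not called, and Col6a2, the other core chain, had 61 counts in all and was not tested. Col6a3 stayed between 0 and 1.85 CPM and was not called.

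Col19a1, a scarce chain of basement membrane zones, was at 1.35, 2.42 and 0.685 CPM in uninjured cells and had no count at 48 h. This is at least a 21.5-fold lower level against a floor of 3 counts over the group, with an adjusted p of 0.0121. At d14 it had 4 counts, all in replicate 3 (0.109 CPM), and a log2 change of -5.04 ± 1.29 (adjusted p = 0.0108), and without that library no fold change can be given. Col8a1, a network chain of vascular walls, was at 4.41, 6.42 and 7.46 CPM in uninjured cells, 8.81, 39.4 and 6.68 at 48 h and 1.23, 2.61 and 1.25 at d14. It was lower at d14 than at 48 h by a log2 change of -3.40 ± 0.69 (adjusted p = 0.00535), which was -2.19 (adjusted p = 0.0025) without 48 h replicate 2. Against uninjured cells the change at d14 was -1.85 ± 0.66 (adjusted p = 0.0436), lost without TMM scaling, without the filter on low counts, without any 1 uninjured library or without d14 replicate 1 or 3 (adjusted p up to 0.145). Its level in 48 h replicate 2 stood apart, and the same library held the highest Col27a1.

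Of the chains that sit on fibrils, Col12a1 was higher at d14. Col12a1, which links fibrils and responds to mechanical load, was at 2.76, 4.42 and 4.11 CPM in uninjured cells, 4.88, 2.16 and 6.64 at 48 h and 9.68, 7.40 and 6.23 at d14. The d14 libraries lay above all uninjured ones (1.05 ± 0.38, adjusted p = 0.0438), but the call was lost without any 1 uninjured or d14 library (0.86 to 1.19, adjusted p = 0.0558 to 0.159). Col16a1 (group means 4.90, 9.11 and 9.19 CPM), Col14a1 (0.263, 0.810 and 0.915 CPM) and Col20a1 (0.775, 0.414 and 1.2 CPM) were not called in any comparison. Col7a1, the anchoring fibril chain, was at 1.22, 1.44 and 0.381 CPM in uninjured cells, 1.23, 0 and 0.415 at 48 h and 3.38, 3.25 and 2.59 at d14. The d14 libraries lay above both other groups, and neither difference passed the test (1.60 ± 0.80, adjusted p = 0.126, and 2.35 ± 0.85, adjusted p = 0.0549).

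The genes that make, fold and cut collagen chains were listed by their roles. Of 13 tested collagen hydroxylases and glycosyltransferases, which modify the chains in the endoplasmic reticulum, 4 were higher and none lower at 48 h, and 5 were higher and 3 lower at d14. As a background, 17.4% (higher) and 11.7% (lower) of the 15519 genes were called for 48 h, and 25.1% and 20.7% for d14. Colgalt1, a galactosyltransferase of hydroxylysine, was at 25.8 ± 2.40 CPM (SD, n = 3) in uninjured cells, 39.2 ± 6.12 CPM at 48 h and 59.7 ± 5.51 CPM at d14, and all 3 differences were called (0.60 ± 0.14, 1.21 ± 0.14 and 0.61 ± 0.14; adjusted p = 0.0086, 3.4e-05 and 0.00686). The related Colgalt2 was at 1.42 ± 0.161, 4.41 ± 1.13 and 8.43 ± 1.62 CPM in the same order, higher than in uninjured cells at both times. Its step from 48 h to d14 (0.92, adjusted p = 0.038) was called in 6 of 16 alternatives and lost (adjusted p = 0.0507 to 0.137) without any 1 d14 library, 48 h replicate 2 or 3, or uninjured replicate 1 or 2. The lysyl hydroxylase Plod3 was at 23.7 ± 1.12, 41.8 ± 7.41 and 40.0 ± 4.41 CPM, higher at both times than in uninjured cells. P3h3 and P3h4, partners in lysyl hydroxylation, were higher at d14 by 2.77 ± 0.43 and 3.38 ± 0.86, and P3h4 at 48 h by 3.38 ± 0.87, a call lost without uninjured replicate 1 (adjusted p = 0.0503) and at 1.82 without 48 h replicate 2. Some genes of prolyl hydroxylation were among the lower ones at d14. Others were not called, namely P4ha2 (-0.55, adjusted p = 0.0929), P3h1 (0.32, adjusted p = 0.169) and P3h2 (0.41, adjusted p = 0.208). P4ha1, a catalytic subunit, was at 38.1 ± 3.14 CPM in uninjured cells and 21.4 ± 0.646 CPM at d14, its partner P4hb at 665 ± 49.0 and 409 ± 53.0 CPM, and Crtap at 37.5 ± 4.95 and 23.6 ± 1.46 CPM (adjusted p = 0.000288, 0.00234 and 0.00282). These 3 calls were lost without TMM scaling, where 8 of the list were higher and none lower at d14.

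Of 11 genes of folding and secretion 2 were higher and 3 lower at 48 h and 3 higher and 4 lower at d14. The matching shares of the full set of 15519 genes came to 17.4% and 11.7% for 48 h, then 25.1% and 20.7% for d14. Serpinh1, the collagen-specific chaperone HSP47, was at 30.4, 32.5 and 33.6 CPM in uninjured cells, 111, 63.2 and 120 at 48 h and 133, 130 and 130 at d14. It rose by 1.61 ± 0.20 (adjusted p = 0.000162) and 2.02 ± 0.20 (adjusted p = 1.01e-05), with all injured libraries above all uninjured ones. The prolyl isomerase Fkbp10 was higher at d14 by 2.61 ± 0.58 and Ppib at 48 h by 0.46 ± 0.11, while the export receptor gene Mia2 was lower at both times (-0.61 ± 0.13 and -0.93 ± 0.13). Creb3l2, the gene of a transcription factor of secretory pathway genes, was at 94.5 ± 14.3, 56 ± 1.67 and 75.7 ± 4.78 CPM (SD, n = 3). It fell at 48 h (-0.75 ± 0.12, adjusted p = 0.00105), while its call at d14 (-0.32, adjusted p = 0.0488) was lost (adjusted p = 0.0503 to 0.225) when any 1 d14 library, 48 h replicate 1 or 3, or uninjured replicate 1 or 3 was left out, and stood at 0.25 without TMM scaling. Tmem131, whose product is known to recruit procollagen for export, was at 62.2 ± 6.96, 63.7 ± 5.9 and 94.6 ± 12.7 CPM and was higher at d14 by 0.61 ± 0.13 (adjusted p = 0.00307). Without TMM scaling 5 of the list were higher and 1 lower at d14, and 2 were lower without uninjured replicate 1, d14 replicate 1 or d14 replicate 2.

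Of 13 genes of processing and cross-linking outside the cell 2 were higher and none lower at 48 h and 6 were higher and 1 lower at d14. Beside these counts stand the shares called over all genes, 17.4% and 11.7% for 48 h and 25.1% and 20.7% for d14. Pcolce, which encodes an enhancer of the protease that removes the C-terminal propeptide, was at 3.37, 3.65 and 4.39 CPM in uninjured cells, 15.8, 13.4 and 18.3 at 48 h and 102, 128 and 166 at d14. It rose by 2.07 ± 0.20 at 48 h (adjusted p = 3.5e-05), 5.12 ± 0.22 at d14 (adjusted p = 3.58e-08) and 3.05 ± 0.20 from 48 h to d14 (adjusted p = 9.14e-06). Bmp1, which encodes that protease, was at 1.40 ± 1.04, 3.21 ± 0.566 and 15.1 ± 1.41 CPM and was higher at d14 by 3.41 ± 0.44 (adjusted p = 8.33e-05), or 4.22 without uninjured replicate 1. Adamts3, which removes the N-terminal propeptide, had no count in uninjured cells and was at least 28.6-fold higher at 48 h and at least 116-fold higher at d14, against a floor of 3 counts over the group. Of the cross-linking oxidases Loxl2 was higher at d14 by 3.56 ± 0.84 (adjusted p = 0.00508) and Loxl1 by 4.31 ± 1.36 (adjusted p = 0.0242), the latter lost without uninjured replicate 1 or 2 or any 1 d14 library (adjusted p = 0.0534 to 0.0855) and at 3.70 and 5.94 without uninjured replicates 1 and 3. The peroxidase Pxdn, which cross-links type IV collagen, was at 25.7 ± 4.68 CPM, 25.0 ± 3.48 CPM and 44.0 ± 9.44 CPM and was higher at d14 by 0.77 ± 0.18 (adjusted p = 0.00525). The transglutaminase Tgm2 was the lower gene (-0.87 ± 0.19, adjusted p = 0.00258), lost without TMM scaling. With only the 2 groups compared in the fit, 1 of this list was higher at 48 h.

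**Figure D5:**
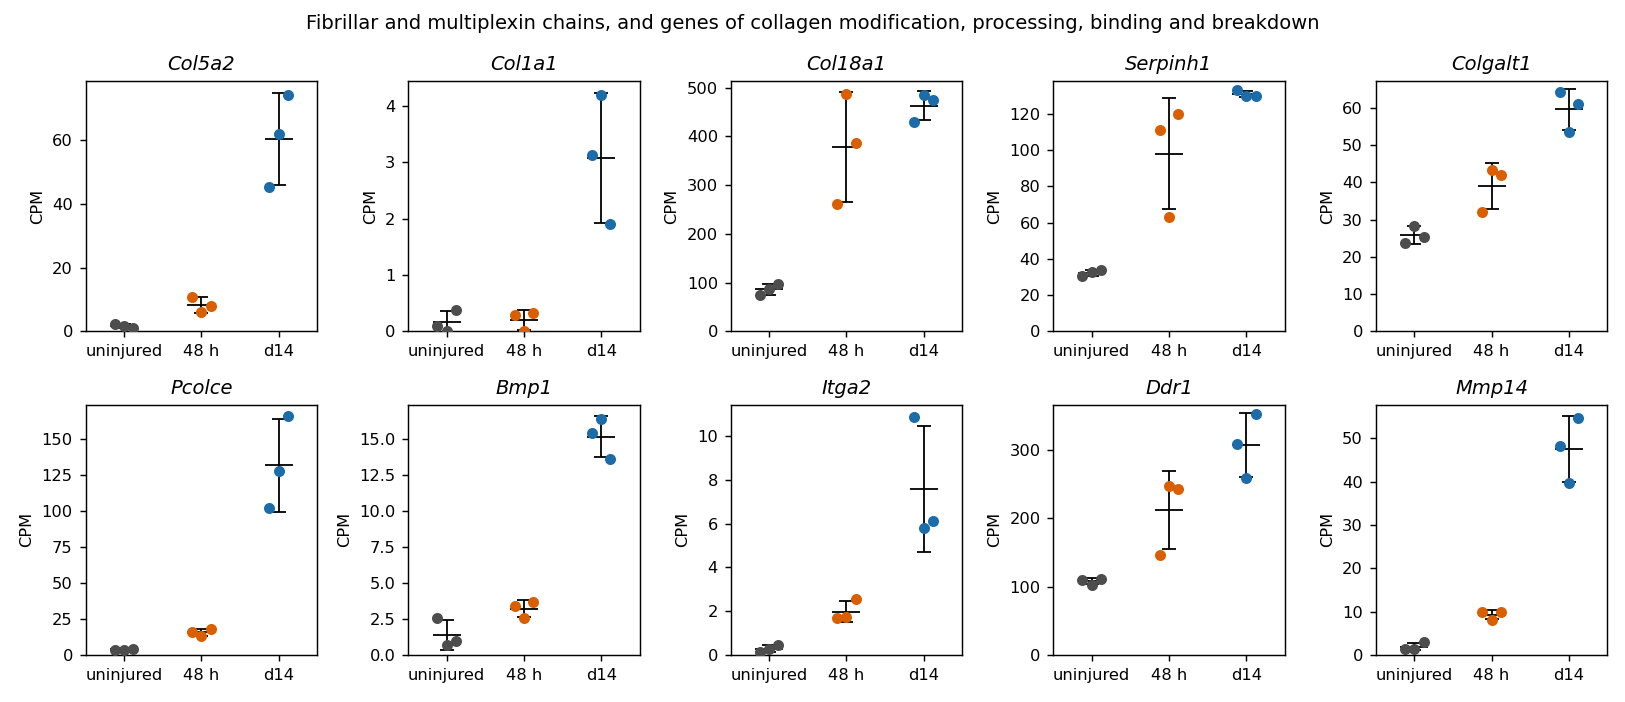
CPM (axes from 0) of 3 collagen chains and 7 genes of collagen modification, processing, binding and breakdown by group; points are libraries, long bars means and whiskers SD (3 libraries). Col5a2, Pcolce and Mmp14 reach 45.2 to 74.1, 102 to 166 and 39.7 to 54.7 CPM at d14, each above the 48 h libraries, while Serpinh1 and Col18a1 at 48 h are already close to d14.

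Of 8 tested collagen receptors 4 were higher in each injured group and none lower. For all genes tested the shares were 17.4% higher and 11.7% lower at 48 h, and 25.1% and 20.7% at d14. Ddr1, a receptor tyrosine kinase for collagen, was at 110, 103 and 111 CPM in uninjured cells, 147, 247 and 243 at 48 h and 309, 259 and 353 at d14. It rose by 0.98 ± 0.19 (adjusted p = 0.00312) and 1.51 ± 0.19 (adjusted p = 7.22e-05). Of the integrin subunits, Itgb1 rose by 0.78 ± 0.12 and 0.83 ± 0.12 and Itga2 by 2.83 ± 0.52 and 4.75 ± 0.54, while Itga1 was called at d14 (0.82 ± 0.14, adjusted p = 0.000618). The fourth receptor at 48 h, Lair1, is expressed by leukocytes, and its call (2.71 ± 0.78, adjusted p = 0.0231) was lost without 48 h replicate 3 (1.49, adjusted p = 0.192) or uninjured replicate 1 or 3.

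Of 6 tested genes of collagen uptake and breakdown 3 were higher and 1 lower in each injured group. The shares given with the receptors apply to this list too. Mmp14, a membrane-bound collagenase, was at 1.43, 1.47 and 2.92 CPM in uninjured cells, 10.0, 8.05 and 9.91 at 48 h and 48.3, 39.7 and 54.7 at d14. It rose by 2.27 ± 0.27 at 48 h (adjusted p = 0.000134) and 4.61 ± 0.28 at d14 (adjusted p = 3.14e-07), with the 3 groups apart. The gelatinase Mmp9 was at 0.282, 0.351 and 0.305 CPM in uninjured cells, 29.7, 31.5 and 60.5 at 48 h and 1.76, 1.07 and 1.52 at d14. It was higher at 48 h by 7.02 ± 0.37 (adjusted p = 8.03e-07) and at d14 by 2.22 ± 0.37 (adjusted p = 5e-04), the latter lost with limma-voom (adjusted p = 0.0651). Mmp8, the neutrophil collagenase, was called at 48 h (6.06 ± 1.14, adjusted p = 0.00255), at 5.34 without 48 h replicate 2. At d14 Mmp8 (0.60, adjusted p = 0.707) and Lair1 (1.29, adjusted p = 0.187) were not called against uninjured cells. Of 8 macrophage and leukocyte markers 5 were higher at 48 h and 5 at d14, against 17.4% and 25.1% of all genes. None was lower than in uninjured cells, and 4 were lower at d14 than at 48 h (16.3% of all genes). The 8 markers summed to 32.3, 31.9 and 28.3 CPM in uninjured cells, 184, 114 and 375 at 48 h and 86.8, 113 and 46.7 at d14. Their part in the levels of Mmp8, Mmp9 and Lair1 was not tested. Ctsk, the gene of the collagen-degrading protease cathepsin K, was at 0.0939 ± 0.0407, 0.255 ± 0.402 and 1.27 ± 0.189 CPM (SD, n = 3). Its call at d14 (3.73 ± 1.18, adjusted p = 0.0226) was lost without any 1 uninjured library or d14 replicate 1 or 3 (adjusted p = 0.0570 to 0.0945). Pepd, the dipeptidase that recycles proline from collagen, fell at both times (-0.83 ± 0.17, adjusted p = 0.00394, and -1.84 ± 0.17, adjusted p = 7.22e-06).

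Of 6 tested proteoglycans and fibril partners 3 were higher in each injured group and none lower. Here as well the background is that given with the receptors. Fn1, which encodes fibronectin, was at 4.88 ± 2.76 CPM (SD, n = 3) in uninjured cells, 82.1 ± 35.1 CPM at 48 h and 74.7 ± 22.1 CPM at d14 (4.05 ± 0.54 and 3.91 ± 0.54; adjusted p = 0.00113 and 0.000531). Thbs1, the gene of thrombospondin 1, was at 4.61 ± 0.802, 42.6 ± 1.02 and 124 ± 30.2 CPM and differed between all groups (3.2 ± 0.19, 4.75 ± 0.20 and 1.54 ± 0.17; adjusted p = 1.24e-06, 3.56e-08 and 0.000112). Sparc, a collagen-binding protein of the matrix and of endothelium, was higher at 48 h (2.57 ± 0.57, adjusted p = 0.0122), lost without uninjured replicate 1 (adjusted p = 0.0553). Dcn, given above, was the third at d14. No alternative moved the counts higher than in uninjured cells of these 3 lists by over 1.5 times.

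Between d14 and 48 h, where 16.8% of all genes tested were higher at d14 and 16.3% lower, the lists had the following counts. There were 4 hydroxylases and glycosyltransferases higher and 4 lower at d14, 2 and 1 genes of folding and secretion, 4 and 1 of processing and cross-linking, 2 and none of the receptors, 1 and 3 of uptake and breakdown and 1 and 1 of the fibril partners. Without TMM scaling the first list had 7 higher and 1 lower, the second 7 and none, and the receptors 4 higher. Loxl2, 1 of the 4 higher genes of processing (3.16, adjusted p = 0.0158), was lost without 48 h replicate 3 or d14 replicate 1 (adjusted p = 0.0539 to 0.0759) and at 4.29 without 48 h replicate 1. Without d14 replicate 3 the first list had 1 higher, and the second had 1 higher without d14 replicate 2 or 3. The lower gene of folding and secretion, Ppib, was lost without 48 h replicate 1 or any 1 d14 library (adjusted p = 0.0774 to 0.0959). Tnxb, the lower fibril partner, was lost without 48 h replicate 1 or d14 replicate 1 or 2 (adjusted p = 0.0629 to 0.141), and Itga2, 1 of the 2 higher receptors, without d14 replicate 1 (1.58, adjusted p = 0.0651).

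Markers of the tubule were read as a check of the sorted groups. All 10 proximal tubule markers were lower at d14 than in uninjured cells and 7 of 10 at 48 h, with sums of 15300, 13900 and 15900 CPM, 9950, 5200 and 6720 CPM and 2720, 3740 and 3800 CPM. Of 8 markers of injured tubules 7 were higher at 48 h and 8 at d14. Over all genes tested, 11.7% were lower and 17.4% higher at 48 h, and 20.7% and 25.1% at d14. Slc34a1 was at 4800, 4630 and 4810 CPM in uninjured cells, 4400, 1150 and 1900 at 48 h and 994, 1620 and 1650 at d14. The part of residual proximal tubule RNA in the differences between collagen chains was not tested.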

How the data were processed

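The authors deposited 1 table of expected counts per gene, whole numbers under column names ending in genes.results, per the file headers. STAR 2.6.1, RSEM 1.2.28 and the builds mm10 and GRCh38 are named, with no role stated, per the submitters' processing notes. Libraries were strand-specific, per the labels' protocols. No source used here gives the annotation release, nor whether reads were counted by strand.

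All 9 columns were assigned to samples by the labels, and 0 columns belonged to other samples. The 92 spike-in rows held no counts and were left out. Genes were kept with edgeR 4.0.16 (filterByExpr, count minimum 10, total 15), which left 15519 genes, libraries were scaled by TMM, and a robust quasi-likelihood model without covariates was fitted to all libraries, after a test of the script on simulated data. The p-values measure the spread between biological replicates. In 16 alternatives the scaling, filter, tool (DESeq2 1.42.0, voom of limma 3.58.1), libraries, replicate block or samples in the fit were changed. Replicates of a group differed by far more than sampling noise (chi-square per gene 39.3 to 122), so none was counted as a duplicate.

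Coordinates and exon lengths came from the GENCODE M21 annotation of GRCm38, in which all 44 gene IDs were found, 41 with the same version. Full statistics were given for chains called in at least 1 comparison and the 5 most abundant per length in each group. From other lists up to 4 called genes per comparison with the smallest p were taken, or, with none called, the 2 highest in level, with some genes fixed by name. P3h1, P3h2, P4hb, Loxl1, Loxl2, Mia3, Sec23a and Plod1 lie outside that rule and were named after their values were seen. The members and lists were chosen with earlier results of these data known. Single values of some podocyte markers are not reported here.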

Additional observations from a re-analysis of the deposited data

Results flagged for a closer look

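For 9 chains the effect of injury differed between 48 h and d14, by the test of d14 against 48 h, in which the shared uninjured libraries cancel. The log2 difference was 3.70 for Col1a1, 2.64 for Col1a2, 1.56 for Col26a1, 0.40 for Col4a2, 0.72 for Col4a5, 1.80 for Col4a6 and 2.84 for Col5a2, all higher at d14. It was -3.40 for Col8a1 and -4.96 for Col13a1, both lower at d14, the latter a fitted value that depends on the prior count because the d14 libraries held 3 counts. Those of Col4a5, Col5a2 and Col8a1 held in all 16 alternatives. The smallest of the 9, that of Col4a2, held in 8 of 16, and that of Col1a2 in 6 of 16. The tamoxifen schedule differs between 48 h and d14 as well, and its part cannot be told apart from that of time.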

How the results depend on the processing

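Of the values of single collagen chains under the alternatives, 1305 stayed on their side of the threshold, 53 newly passed it, 73 no longer passed it and 1 passed it in the opposite direction. In 26 of the 1432 values, from 13 of 90 chain and comparison pairs, the sign differed from the reported one, always for a difference that was not called. Among these were Col17a1 at 48 h (2.71, but -1.21 without 48 h replicate 3), Col27a1 at 48 h (1.15, but -0.21 without 48 h replicate 2) and, without TMM scaling, Col4a4 at d14 against uninjured cells (0.27 instead of -0.29) and Col4a3 at d14 against 48 h (0.33 instead of -0.26). Without TMM scaling all genes were called 7315 higher and 1417 lower at d14 than in uninjured cells (3898 and 3214 with it) and 6812 higher and 934 lower than at 48 h (2604 and 2533 with it), and 12 collagen chains were higher at d14 than at 48 h and 2 lower at d14 than in uninjured cells. With DESeq2 10 chains were higher at 48 h. The same-numbered replicates did not deviate together (correlations -0.127 to 0.019), so the numbers do not pair samples; with the replicate number as a block, 4 chains were higher at d14 than at 48 h instead of 7, and the calls of Col4a3 at 48 h, of Col12a1, Col3a1 and Col5a3 at d14 and of Col1a2, Col4a2 and Col4a6 between d14 and 48 h were lost. Leaving out 1 library gave 4 to 8 chains higher and 3 to 4 lower at 48 h, 9 to 15 and 3 to 4 at d14 and 2 to 10 and 1 to 3 between d14 and 48 h, with 8 without 48 h replicate 1 and 2, 4 and 4 without d14 replicates 1, 2 and 3; 1 was lower without d14 replicate 1 or 2. Over all genes it gave 1994 to 2837 higher and 1147 to 1995 lower at 48 h (1147 and 1208 without uninjured replicates 1 and 3), 3209 to 4426 and 2596 to 3564 at d14 and 1755 to 2496 and 1827 to 2645 between d14 and 48 h. Directions turned without TMM scaling for Creb3l2 (0.25), Mia3 (0.23) and Sec23a (0.02) at d14 against uninjured cells and for P4hb (0.01), Plod1 (0.40), Plod3 (0.52) and Ppib (0.23) at d14 against 48 h, as scaling shifts all genes by 1 amount per library. Leaving out 1 library turned Col6a6 at d14 against 48 h, from -1.29 without 48 h replicate 3 to 3.36 without 48 h replicate 1, the 48 h library with 29 of its 30 counts. Where both groups had few counts, as for Col5a1 or Col6a3, depth limits what could be called. 48 h replicate 2 was the shallowest library, and its floor of 0.431 CPM lies above many of the fibrillar levels.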
